A study of Homo sapiens with 2 samples.

Results

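The AP-1 transcription factors described here are FOS, FOSB, FOSL1, FOSL2, JUN, JUNB, JUND, ATF3, MAFF and BATF3, 10 of the 18239 genes to which the platform annotation assigns a probe set by 1 symbol. They were taken as every probe set annotated to one of these symbols alone, which gave 33 probe sets of 45253. The cells were GFP-SAS, an established human squamous carcinoma line of the tongue that carries green fluorescent protein, treated for 24 h with 25 nM of an LNA/DNA antisense oligonucleotide (a short strand in which locked nucleotides strengthen pairing with its target RNA). The anti-miR cells received an oligonucleotide against miR-361-3p, and the control cells a non-target one. Each group was measured on 1 Affymetrix array, so there is no replicate error and no p-value, and precision is limited by the number of arrays. The level of miR-361-3p itself was not analysed here.

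AP-1 is a family of dimers built from JUN, FOS, ATF and MAF proteins, which grip DNA with a basic region and pair through a leucine zipper. JUN proteins can pair with themselves, whereas FOS proteins need a JUN partner. The pair then binds the motif TGANTCA, in which N is typically C or G, or the related cyclic AMP response element, TGACGTCA. Growth factors and stress switch many of these genes on within minutes through the MAP kinases, and in squamous epithelium AP-1 acts on proliferation, differentiation, invasion and inflammatory genes. FOSL1, also called FRA-1, is known for its part in carcinoma cell motility.

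The inhibited microRNA is shown first because it defines the treatment, with its seed (bases 2 to 8) in capitals, from RefSeq on GRCh38.p14 (chrX:85903641-85903663, minus strand).
hsa-miR-361-3p: uCCCCCAGgugugauucugauuu
Seed sites in the AP-1 transcripts were not analysed here.

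The promoters are shown because AP-1 and ATF proteins are known to bind promoters of AP-1 genes themselves. RefSeq windows of 250 bases upstream of a start site were matched for 8 of the 10 genes, in 10 windows since ATF3 and MAFF had more than 1. FOSL1 and BATF3 had no entry. On both strands TGANTCA, TGACGTCA, its half-element TGACGT, and TGACATCA, a variant chosen after the JUN promoter had been read, were searched. TGANTCA, searched with any base at N, was found in 0 of these 10 windows, against 6.57% of all 35116 promoters. That share also counts promoters with A or T at N. TGACGT alone was found for 5 of 8 genes, in 5 of 10 windows, against 7.10% of all promoters. With TGACATCA added, whose choice rests on JUN itself, the count was 7 of 8 genes and 7 of 10 windows, against 9.36%, and JUNB was the exception. TGACGTCA, which contains TGACGT, was found for JUND and MAFF, against 1.65% of all promoters, and TGACATCA for JUN and ATF3, against 2.37%. Each match is printed below in capitals with its surroundings, 5′ to 3′ on the gene's strand, and is a description of letters, not of a bound site.
FOS (chr14:75278753-75278780, plus strand): ggttgagcccgTGACGTttacactcatt
FOSB (chr19:45467925-45467952, plus strand): caaggggcgggTGACGTaagcagggggg
FOSL2 (chr2:28392781-28392808, plus strand): gagtctggggtTGACGTgagtgaatcca
JUN (chr1:58784096-58784125, minus strand): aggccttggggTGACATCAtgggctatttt
JUND, near match (chr19:18281693-18281720, minus strand): gcaaatgagcgACGTCAcccgcacccaa
JUND, far match (chr19:18281804-18281833, minus strand): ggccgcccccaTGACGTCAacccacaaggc
ATF3 (chr1:212565273-212565302, plus strand): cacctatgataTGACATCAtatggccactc
MAFF (chr22:38201929-38201958, plus strand): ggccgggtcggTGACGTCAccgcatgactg
The matches of FOS, FOSB, FOSL2, JUN and MAFF lay close together, with first bases at -64, -60, -66, -67 and -54 from the start site, and those of JUND and ATF3 lay farther out, at -87, -200 and -123. All JUN probe sets were lower on the anti-miR array, as given further on, so its whole upstream window (chr1:58784048-58784297, minus strand) is shown with the match in capitals.
JUN, 250 bases: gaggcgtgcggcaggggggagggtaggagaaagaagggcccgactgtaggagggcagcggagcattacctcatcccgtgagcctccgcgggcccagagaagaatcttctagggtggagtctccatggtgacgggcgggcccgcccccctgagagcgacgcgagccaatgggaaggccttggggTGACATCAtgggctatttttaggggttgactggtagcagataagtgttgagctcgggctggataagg

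Values are log2 RMA expression values, and every difference, also in log2 units, subtracts the control array from the anti-miR array. A probe set was called dim, and left out of the gene value, if it stayed below the array's median (4.64 on the anti-miR array, 4.63 on the control array) on both arrays. A gene's value is the mean over its other, retained probe sets, and the SD over them is a within-array technical error that holds no variation between cultures. Of the 33 AP-1 probe sets 24 were retained, so that 9 of the 10 genes had a value, and BATF3 had none. Across all 11272 genes with a value the median difference was 0.13, so a difference near 0.13 is that of a typical gene here, and the commonly used reference genes GAPDH and ACTB differed by -0.0047 and -0.13. The nonspecific control probe sets, which measure background, peaked at 7.16 and 6.87 on the anti-miR and control arrays, and the next highest of the 23 lay at 5.14 and 4.81. The 12 poly-A spike probe sets, which report on labelling, had a mean difference of 0.32 ± 0.19 (SD). Of 10 listed epithelial markers 6 had a value, KRT14 was dim, and 3 (KRT6A, KRT17 and TP63) were not analysed here. On the anti-miR and control arrays KRT5 read 8.89 and 9.08, EPCAM 11.14 and 11.28, and KRT8 10.44 and 10.55. Of markers of other cell types, 1 of 8 fibroblast, 2 of 8 leukocyte and 2 of 6 endothelial genes had a value.

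FOSL1 and JUN were lower on the anti-miR array at every probe set, FOSL2 and FOS were lower on average with probe sets that disagreed, and JUNB, JUND, FOSB, ATF3 and MAFF lay above 0, between 0.12 and 0.29. At 1.5-fold, 0 of 9 genes were higher and 0 were lower, against 8.23% higher and 14.2% lower among all tested genes (22.4% either way). At 2-fold the count was likewise 0 and 0, against 1.23% higher and 6.98% lower (8.22% either way). Of the 9 genes 4 had a difference below 0, against 37.7% of all genes. In such bulk RNA, fewer cells with a transcript and less of it per cell cannot be told apart. The median of the 9 genes was 0.12, close to that of all genes. With the median of all genes subtracted, FOSL1 passed 1.5-fold (1.56-fold lower) and FOSB turned from 0.12 to -0.01, and of all genes 17.3% were then lower and 4.43% higher. Among single probe sets, 3 were at least 1.5-fold lower, of FOSL1 and JUN, and 1 was at least 1.5-fold higher, of ATF3. All 4 were among the 24 retained, and of all retained probe sets 16.9% were lower and 8.6% higher by that measure, or 9.87% and 5.04% with dim ones kept. In sign alone 16 of the 24 were lower, against 42.5% of all retained probe sets. These 16 include all 6 probe sets of FOSL1 and all 4 of JUN, which read the same gene repeatedly, so they do not count as separate members.

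**Figure D1:**
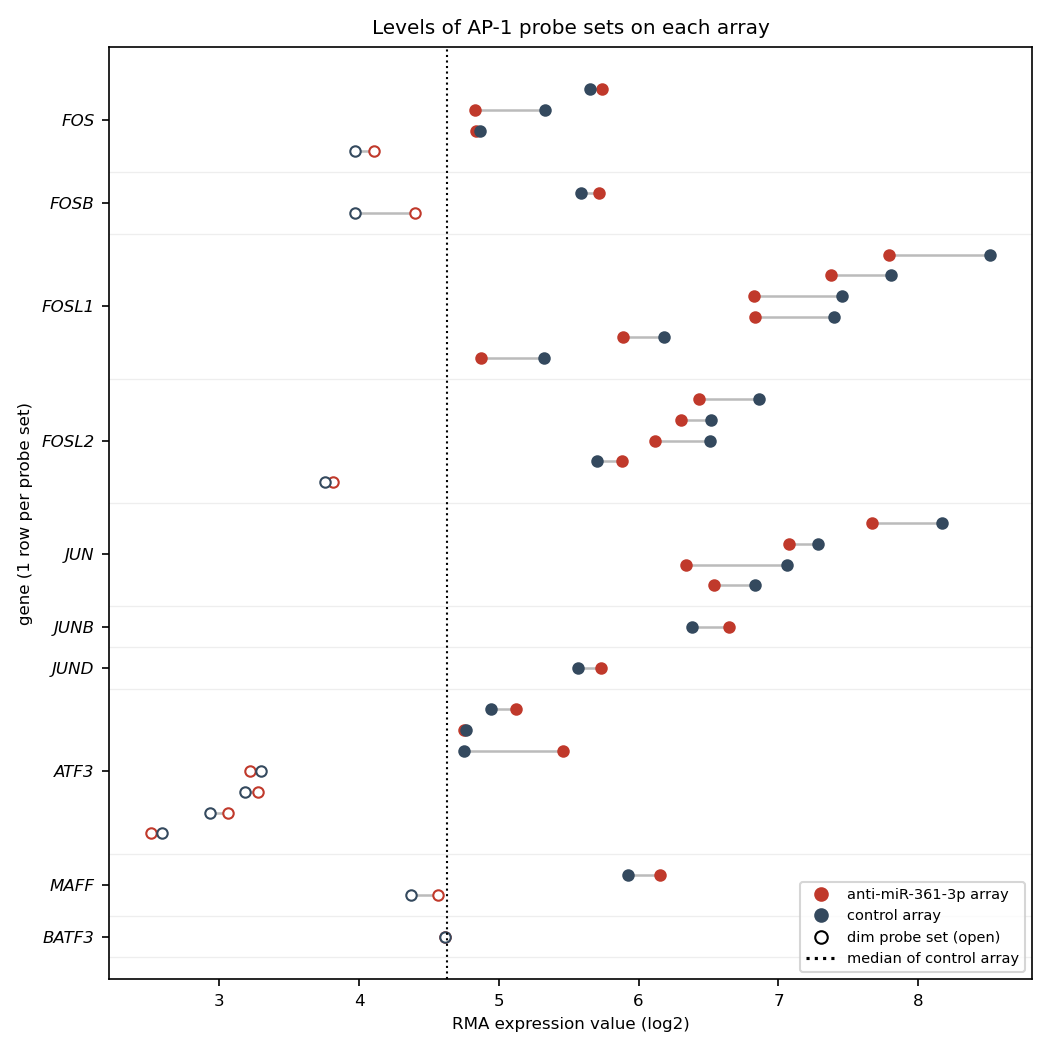
RMA values (log2, horizontal axis) of all 33 AP-1 probe sets on the anti-miR-361-3p array (red) and the control array (dark), 1 row per probe set, grouped by gene. Open circles are dim probe sets and the dotted line is the median of the control array (4.63). All 6 FOSL1 rows and all 4 JUN rows have the anti-miR value on the left, that is lower.

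Among the FOS proteins, FOSL1 was the gene with the largest difference. Its 6 probe sets read 7.79, 7.37, 6.83, 6.83, 5.89 and 4.87 on the anti-miR array, against 8.51, 7.80, 7.45, 7.40, 6.18 and 5.32 on the control array. Every probe set was lower on the anti-miR array, although the ranges of the arrays overlap because probe sets of 1 gene differ in brightness. The gene value was 6.60 against 7.11, a difference of -0.52 ± 0.15 (SD over 6 probe sets), 1.43-fold. The probe-set differences ran from -0.72 to -0.30, and 2 of the 6 passed 1.5-fold. Of 11272 genes 1766 had a lower difference than FOSL1, which is 15.7%. Agreement between probe sets was common, since 84 of 211 genes with 6 retained probe sets (39.8%) had all of them lower. On the control array 4 of the 6 FOSL1 probe sets were above the highest nonspecific control, and on the anti-miR array 2 were.

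FOSL2, the related FRA-2, had 5 probe sets, of which 1 was dim. The retained ones read 6.43, 6.30, 6.12 and 5.88 on the anti-miR array, against 6.86, 6.52, 6.51 and 5.70 on the control array. The first 3 differed by -0.43, -0.22 and -0.39, lower on the anti-miR array, and the last was higher by 0.18. The gene difference was -0.22 ± 0.28 (SD over 4 probe sets), smaller than the spread between its probe sets. FOS, the founding member and an early response gene, read 5.73, 4.83 and 4.83 on the anti-miR array, against 5.65, 5.33 and 4.86 on the control array at its 3 retained probe sets. These differences were 0.08, -0.50 and -0.03, so 1 FOS probe set carried the lower gene value. The FOS difference was -0.15 ± 0.31 (SD over 3 probe sets), and its brightest probe set alone gave 0.08, so its sign depended on the probe set. FOSB, a FOS protein with a known short splice form, had 1 retained probe set, at 5.71 in anti-miR cells and 5.59 in control cells, a difference of 0.12. Its dim probe set read 4.40 and 3.97, a difference of 0.43.

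Of the JUN proteins, which anchor most AP-1 dimers, JUN was lower and JUNB and JUND were not. The 4 JUN probe sets read 7.67, 7.08, 6.54 and 6.34 on the anti-miR array, against 8.17, 7.28, 6.83 and 7.06 on the control array. Each was lower on the anti-miR array, with differences from -0.72 to -0.21. The gene value was 6.90 against 7.34, a difference of -0.43 ± 0.23 (SD over 4 probe sets), 1.35-fold, and 1 probe set passed 1.5-fold. Of all genes 18.0% had a lower difference, and 34.9% of the 842 genes with 4 retained probe sets had all of them lower. JUNB, which can oppose JUN in growth control, read 6.65 in anti-miR cells and 6.38 in control cells, a difference of 0.27. JUND, a broadly expressed JUN protein, read 5.73 and 5.56, a difference of 0.17. JUNB and JUND were each read by 1 probe set, and all their values lay above the second highest nonspecific control. No retained probe set of FOS, FOSB, FOSL2, JUNB, JUND, ATF3 or MAFF was above the highest one on either array, and of all 33 AP-1 probe sets 3 were in anti-miR cells and 7 in control cells.

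ATF3, a stress-induced factor that often represses, had 7 probe sets, of which 4 were dim. The retained ones read 5.46, 5.13 and 4.75 on the anti-miR array, against 4.75, 4.94 and 4.76 on the control array. The first differed by 0.71, but its control value lay under the second highest nonspecific control and its anti-miR value under the highest, so the size is not well determined. The others differed by 0.18 and -0.02. The gene difference was 0.29 ± 0.38 (SD over 3 probe sets), within the spread between its probe sets. The 4 dim probe sets differed by -0.08 to 0.13. A pair of dim ATF3 probe sets gave the same difference, -0.08, to within 5e-06, at levels of 2.51 and 3.22 on the anti-miR array and 2.59 and 3.30 on the control array, so they are not treated as separate readings. MAFF, a small MAF protein without an activation domain of its own, read 6.15 in anti-miR cells and 5.93 in control cells at its retained probe set, a difference of 0.22. Its dim probe set differed by 0.19. BATF3, a JUN partner known from dendritic cells, read 4.62 in anti-miR cells and 4.61 in control cells, both dim.

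**Figure D2:**
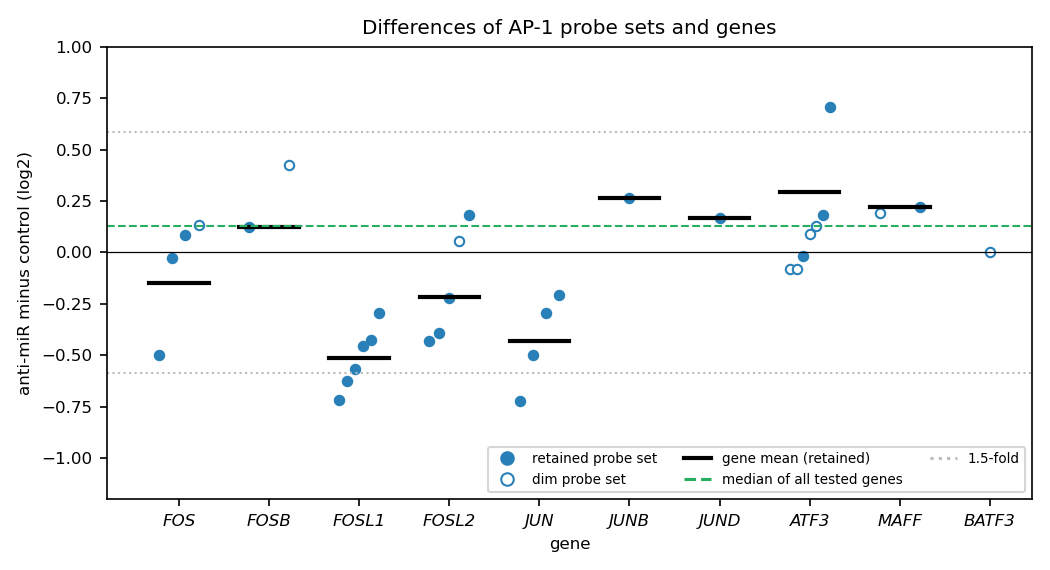
Difference between the arrays (anti-miR minus control, log2, vertical axis) for each AP-1 probe set (points, open where dim) and the gene mean over retained probe sets (black bars). The dashed line is the median of all tested genes (0.13) and the dotted lines mark 1.5-fold. The FOSL1 and JUN points all lie below 0.

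The retained probe sets of FOSL1 and JUN did not overlap with those of JUNB, JUND, FOSB, ATF3 or MAFF in their differences. For JUNB, JUND, FOSB and MAFF, each with a single retained value above 0, this follows from the signs already given. Even JUNB and JUND, at 0.27 and 0.17, do not overlap by this measure. The share of such pairs among all genes was not computed, so the lack of overlap is not read as a result about these genes. FOSL1 differed from JUNB by -0.78 and from ATF3 by -0.81, and JUN from JUNB by -0.70. FOSL1, JUN, FOS and FOSL2 overlapped with each other. FOSB, JUNB, JUND and MAFF each rest on a single probe set with the suffix _x_at, which by the array's naming can hold probes that match other sequences. Across the 24 retained AP-1 probe sets the difference correlated with the mean level at Pearson's r = -0.59, so the brighter of these tended to be lower on the anti-miR array. The brightest are those of FOSL1 and JUN, so this largely restates their lower values. Among all tested genes the median difference fell from 0.16 at mean levels under 5 to 0.13 from 5 to 6 and 0.08 from 6 to 7. It was 0.12 from 7 to 8 and 0.14 at 8 and above, so it did not fall throughout. Class medians of gene values are not directly comparable with a correlation over probe sets. The 24 AP-1 points share arrays and, in part, genes. The nonspecific controls of GC class 15 and above had a median difference of 0.23 (11 probe sets), a size like the differences of JUNB, JUND and MAFF, and the part of that shift in them was not tested.

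How far each gene's difference moved with the processing is drawn in the plot of settings. FOSL1, JUN and FOSL2 stayed below 0 and JUNB, JUND, ATF3 and MAFF above 0 wherever a setting gave them a value, and FOS and FOSB changed sign. For FOSL1, JUN, JUNB, JUND and MAFF every probe set of the gene has the same sign. The choice of probe sets could therefore not change theirs, and only centring could.

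**Figure D3:**
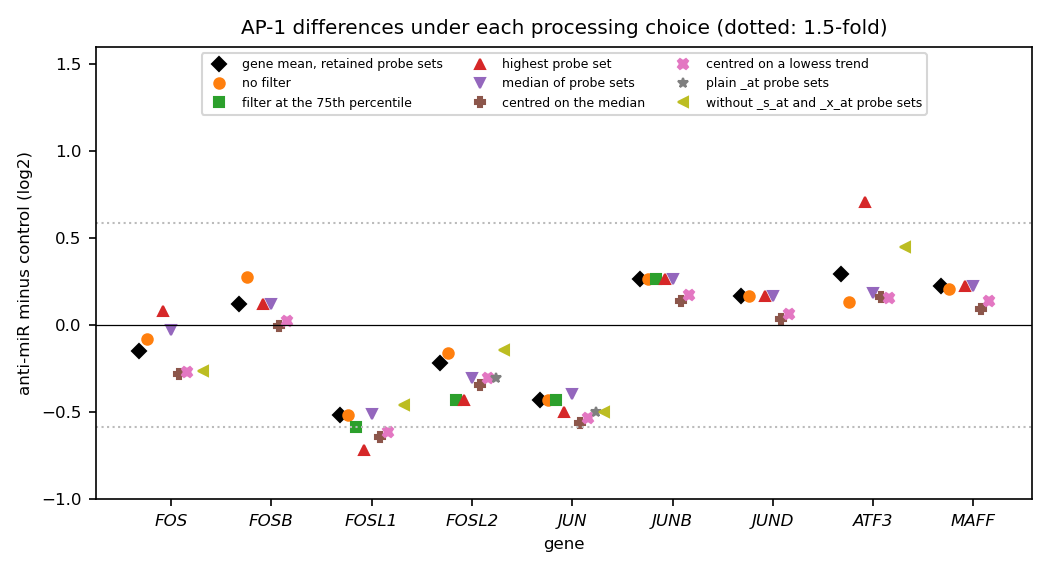
Difference between the arrays (anti-miR minus control, log2, vertical axis) of the 9 AP-1 genes with a value, 1 marker per processing choice, with dotted lines at 1.5-fold. FOSL1 crosses the lower line under 4 choices, to -0.72 at most, and ATF3 the upper line under 1, at 0.71.

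Differences between the arrays varied with the length of genes, and most AP-1 genes are short. The 1241 tested genes with a genomic span under 5 kb, among them FOS, JUN, JUNB and JUND, had a median difference of 0.25, and the 1806 genes of 100 kb and more had a median of -0.53, with 47.6% of them at least 1.5-fold lower. JUND at 0.17 and JUNB at 0.27 lay within the quartiles of their span class, 0.09 and 0.42. FOS lay below that class's lower quartile. JUN lay lower still: 2.66% of the genes in its class had a lower difference. FOSL1 spans 8.50 kb, and of the 1338 genes from 5 to 10 kb, with a median of 0.27, 2.47% had a lower difference. FOSB, at 0.12, lay between that class's lower quartile, 0.10, and its median. ATF3, at 0.29 ± 0.38 (SD over 3 probe sets), lay above the upper quartile, 0.26, of the genes from 25 to 100 kb, whose median was 0.04. Among genes of like brightness FOSL1 and JUN stood out less, as 20.4% of 2488 genes with a mean level from 6 to 7 lay below FOSL1, and 22.1% of 1724 genes with a mean level from 7 to 8 lay below JUN. The span and brightness classes were drawn after the values were seen and describe 2 arrays.

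**Figure D4:**
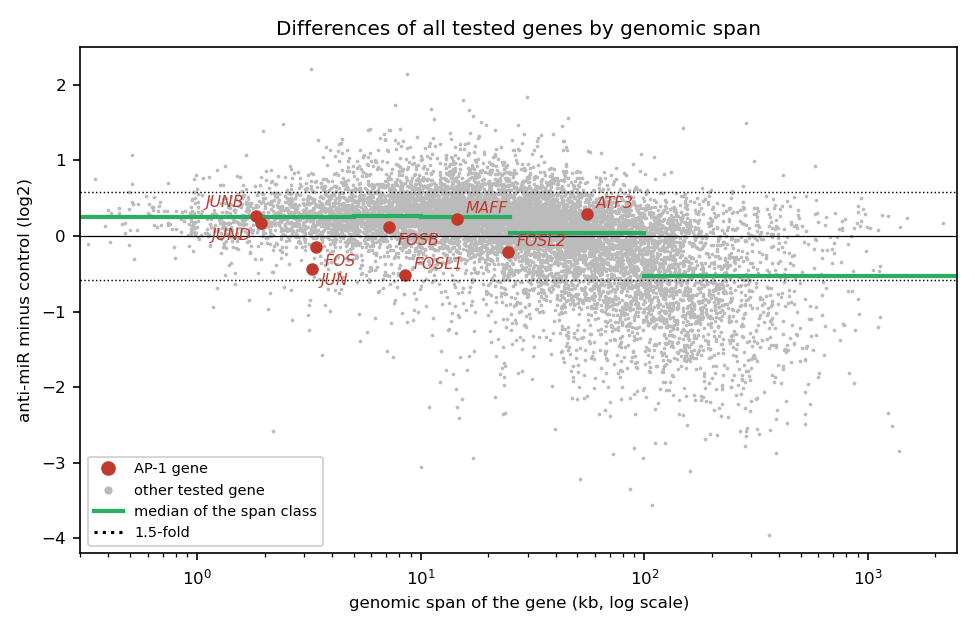
Difference between the arrays (anti-miR minus control, log2) of each tested gene against its genomic span (kb, log scale), with AP-1 genes in red, other genes in grey, and green bars at the median of each span class. FOSL1, JUN, FOS and FOSL2 lie below the bar of their class and FOSB somewhat below it, whereas JUNB, JUND and MAFF lie near it and ATF3 lies above it.

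AP-1 genes are switched on by serum response factor with its ternary complex factors, and AP-1 proteins are activated by MAP kinases. Of the 6 genes of the serum response group 5 had a value, with 0 at least 1.5-fold higher, 1 lower and a median of 0.04. MRTFB, an actin-regulated partner of serum response factor, was 2.24-fold lower, with 5.88 in anti-miR cells and 7.04 in control cells at 1 probe set, and with dim probe sets kept it differed by -0.33. MRTFA differed by 0.04 and ELK3, a ternary complex factor, by -0.21. Of 29 listed genes of the MAP kinase cascade 22 had a value, 1 was higher and 4 were lower, with a median of 0.01, while 2 were dim and 5 were not analysed here. RPS6KA3, the kinase RSK2 downstream of ERK, was 4.08-fold lower (4.76 in anti-miR cells and 6.79 in control cells). MAP2K4, which activates JNK, the kinase named for JUN, was 2.03-fold lower, with a difference of -1.02 ± 0.50 (SD over 2 probe sets). MAP3K7, the kinase TAK1, differed by -0.80 ± 0.08 (SD over 6 probe sets) and MAPK13, a p38 kinase, by -0.63 ± 0.23 (SD over 3 probe sets). MAP3K1, which acts upstream of JNK, was the gene at the other end, 1.78-fold higher (8.37 and 7.53). MAPK11 and RPS6KA1 differed by -0.01 and 0.02. The share of lower genes, 4 of 22, lay near the 14.2% of all genes. RPS6KA3 spans 117 kb, MAP2K4 123 kb and MRTFB 272 kb, in the length class in which 47.6% of all genes were lower. MAP3K7 and MAPK13 are shorter, at 73.5 and 14.0 kb.

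Genes that control the lifetime and activity of AP-1 proteins were lower or near the other genes, with 0 of 14 higher and 7 lower by 1.5-fold. All 14 had a value, and the median was -0.54, against 0.13 for all genes, of which 8.23% were higher and 14.2% lower. The median and count depended on the probe sets used, at -0.29 with 5 lower when dim probe sets were kept, -0.13 with 5 lower under a filter at the 75th percentile, -0.13 with 1 lower for plain _at probe sets, and 0.02 with 3 lower without _s_at and _x_at probe sets. COP1, a ubiquitin ligase that marks JUN for destruction, was about 4.66-fold lower, at 4.62 in anti-miR cells and 6.84 in control cells (-2.22 ± 0.20, SD over 2 probe sets). GSK3B, a kinase that phosphorylates JUN and so marks it for FBXW7, was 3.70-fold lower (6.15 and 8.04). ITCH, a ligase that acts on JUN and JUNB, differed by -1.36 ± 0.10 (SD over 4 probe sets), and FBXW7 by -0.94 ± 0.28 (SD over 2 probe sets). TRRAP, a cofactor of acetyltransferases, differed by -0.73, and USP28, which counters FBXW7, by -0.62, or -0.30 with dim probe sets kept. The mean anti-miR levels of COP1, FBXW7 and USP28, like those of RPS6KA3, ATF6 and CXCL8, lay under the second highest nonspecific control there (5.14), so their fold differences are approximate. The dimmer COP1 and FBXW7 probe sets were retained through the control array alone. The coactivators EP300 and NACA, the genes of the list nearest 0, differed by -0.13 and 0.08. CREBBP, also among the 7 lower genes and named after its value was seen, differed by -0.59 ± 0.59 (SD over 4 probe sets). Its probe sets ran from -1.27 to 0.16, and with dim probe sets kept it differed by -0.39. Of these 14 genes 6 span 100 kb or more, and all 6 were among the 7 lower ones. COP1 spans 262 kb and GSK3B 273 kb, so these values came from the length class in which 47.6% of all genes were lower.

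AP-1 proteins also pair with other leucine zipper factors of the ATF, CREB, MAF, NRF and C/EBP groups. Of 34 listed partners 23 had a value, 6 were higher and 3 lower, with a median of 0.15, while 8 were dim and 3 were not analysed here. Of all genes 8.23% were higher and 14.2% lower, so the 3 lower partners of 23 are near the share of all genes. The higher count stayed at 6 when centred on the median, and was 5 of 31 with dim probe sets kept. It was 1 of 23 at 2-fold, 1 of 5 for plain _at probe sets, and 3 of 17 without _s_at and _x_at probe sets. DDIT3, ATF4 and CEBPA had no value in that last setting. DDIT3, the stress factor CHOP, was higher by 2.21-fold, with 5.87 in anti-miR cells and 4.73 in control cells (1.14 ± 0.08, SD over 2 probe sets). Its control level lay under the second highest nonspecific control there (4.81), so the fold difference is approximate. The dimmer DDIT3 probe set was retained through the anti-miR array alone. ATF4, which drives the amino acid stress response, was 1.83-fold higher (11.26 and 10.39), and CEBPA and TEF, at 1 probe set each, were 1.90-fold and 1.89-fold higher, TEF by 0.49 on the log2 scale with dim probe sets kept. ATF6, which senses unfolded proteins, differed by -1.60 ± 0.08 (SD over 3 probe sets), 3.04-fold, and NFE2L3 1.99-fold. ATF6 averaged 4.44 on the anti-miR array, under its median of 4.64, so at least 1 ATF6 probe set was retained through the control array alone. ATF6 spans 198 kb, in the length class in which 47.6% of all genes were lower, and NFE2L3 spans 34.9 kb. NFE2L2, the antioxidant factor NRF2, was named after its value was seen and was 1.74-fold lower (-0.80 ± 0.01, SD over 2 probe sets). NFE2L1 and NFIL3, among the 6 higher partners, were also named after their values were seen. NFE2L1 differed by 0.73 ± 0.15 (SD over 6 probe sets, from 0.55 to 0.91) and NFIL3 by 0.75 at 1 probe set. ATF2 and BACH1 differed by -0.01 each. The spread of ATF2 probe sets, 0.57 over 3, was wider than its difference.

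Other immediate early genes and genes that AP-1 is known to act on were spread to both sides. Of 25 other immediate early genes 19 had a value, 2 were higher and 2 lower, with a median of -0.04, while 4 were dim and 2 were not analysed here. These counts lie near the shares of all genes, 8.23% higher and 14.2% lower. SGK1, a kinase induced by serum and glucocorticoids, was higher by 2.68-fold (8.69 against 7.27), and EGR4, at 4.69 and 4.06, 1.54-fold. The EGR4 probe set was retained through the anti-miR array alone, and with dim probe sets kept its difference was 0.40, under 1.5-fold. KLF6 was 2.15-fold lower and CCN1, a secreted matrix protein, 1.80-fold lower (10.17 and 11.02). KLF2 and ZFP36L2 differed by -0.04 and 0.04. EGR4 did not reach 1.5-fold with the median of all genes subtracted.

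Of 35 AP-1 target genes 25 had a value, 2 were higher and 6 lower, with a median of -0.13, while 7 were dim and 3 were not analysed here, against 8.23% higher and 14.2% lower among all genes. CXCL8, a neutrophil attractant whose promoter has a known AP-1 site, was 2.36-fold lower in anti-miR cells (4.36 and 5.60), and PLAU, the protease urokinase, 2.19-fold lower (6.61 and 7.74). The mean CXCL8 level lay under the anti-miR array's median (4.64), so at least 1 of its probe sets was retained through the control array alone. CD44, a hyaluronan receptor, differed by -1.01 ± 0.41 (SD over 10 probe sets), and its probe sets ran from -1.73 to -0.50. HMGA2, a chromatin protein, differed by -0.93 ± 0.90 (SD over 5 probe sets), about its own spread. EREG, a ligand of the EGF receptor, and ITGA2, an integrin that binds collagen, differed by -0.69 and -0.67, EREG by -0.37 with dim probe sets kept. The dimmer retained EREG probe set was retained through the control array alone. HBEGF and HMGA1 differed by -0.02 and -0.01. The 2 higher genes, named after their values were seen, were HMOX1 at 0.62 and MMP1, an interstitial collagenase and a classical AP-1 target, at 0.60 ± 0.23 (SD over 2 probe sets), and neither passed 1.5-fold with the median of all genes subtracted. HMOX1 rests on 1 probe set that was retained through the anti-miR array alone (4.79 and 4.18), and with dim probe sets kept it differed by 0.37, which left 1 target gene higher. CXCL8 spans 3.15 kb and PLAU 8.66 kb, like JUN and FOSL1, whereas CD44 and HMGA2 span 93.2 and 142 kb.

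**Figure D5:**
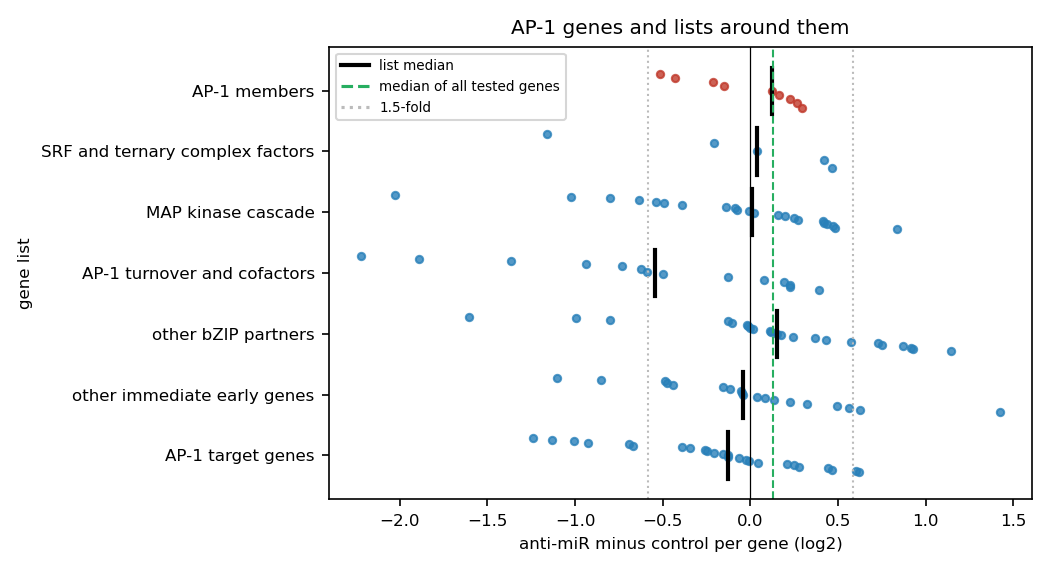
Difference per gene (anti-miR minus control, log2, horizontal axis) for the AP-1 genes (red) and the lists around them (blue), with black bars at list medians, a dashed line at the median of all tested genes (0.13) and dotted lines at 1.5-fold. The list of turnover factors and cofactors has a median of -0.54 at this setting, which does not hold under every filter, and the AP-1 genes run from -0.52 to 0.29.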

How the data were processed

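Each array gave 1 column of log2 values per probe set, deposited by the authors. The submitters' processing notes name RMA, which corrects background, aligns the distributions of arrays and summarises the probes of a set. For its software and version, nothing is stated in the sources used here. The table holds 49386 probe sets, of which 93 array controls were kept out of gene values. The platform annotation names 1 symbol for 45253 of the others, and 45172 of these were matched to RefSeq by Entrez ID. Retained probe sets reached an array's median on at least 1 array (24127 probe sets, 11272 genes). With 1 array per group no test was possible, and genes were counted past 1.5-fold. The AP-1 genes and all gene lists were chosen with earlier results of these data known. Named genes are the 10 AP-1 genes and, per list, up to 6 past 1.5-fold and the 2 nearest 0, with GAPDH and ACTB as array controls. No genes of like pattern are named, since 2 arrays give no pattern. The counting was tested on simulated data with little noise and changes well past 1.5-fold, so that test does not bear on genes near the threshold. Python 3.11.15, pandas 2.3.3, numpy 2.4.6 and statsmodels 0.14.6 were used. The alternatives were other filters, gene values, centring (median, or lowess with a fraction of 0.3), a 2-fold threshold and subsets of probe sets.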

Additional observations from a re-analysis of the deposited data

Results flagged for a closer look

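Signals higher on the anti-miR array than on the control array were also present outside the gene comparison. The poly-A spike control probe sets averaged 6.29 in anti-miR and 5.97 in control cells, a difference of 0.32 over 12 probe sets. Background probe sets whose GC class was at least 15 had a median level of 3.43 in anti-miR and 3.22 in control cells, and a median difference of 0.23. The dim FOSB probe set, left out of the gene value, was higher by 0.43, at 4.40 in anti-miR and 3.97 in control cells.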

How the results depend on the processing

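No paired analysis was possible because there was a single array on each side, which also means that leaving out an array could not be tried. Signal over background limits most AP-1 values, since of 33 probe sets 3 in anti-miR cells and 7 in control cells were above the highest nonspecific control. FOSL1, JUN and FOSL2 kept a negative sign, and JUNB, JUND, ATF3 and MAFF a positive one, under every alternative that gave them a value, whereas FOS turned to 0.08 with its brightest probe set and FOSB to -0.01 when centred on the median. Only centring could have changed the sign of FOSL1, JUN, JUNB, JUND and MAFF, since the probe sets of each share a sign. JUNB and JUND have a single probe set, so most alternatives repeat the same value. FOSL1 ranged from -0.72 to -0.46 and passed 1.5-fold with a filter at the 75th percentile (-0.59), with its brightest probe set (-0.72), and after subtracting the median (-0.65) or a lowess trend (-0.61). JUN ranged from -0.56 to -0.40 and never passed. ATF3 passed with its brightest probe set, at 0.71. Thus the number of AP-1 genes lower was 1 under those 4 settings, and the number higher was 1 with the brightest probe set, against 0 otherwise. The AP-1 median was -0.43 with the filter at the 75th percentile (4 genes), -0.40 with plain _at probe sets (2 genes) and -0.26 without _s_at and _x_at probe sets (5 genes), a setting chosen after seeing the data. These 3 settings measure fewer genes and leave out most of those above 0. Against 928 genes higher and 1602 lower (36.7% higher), centring on the median gave 499 and 1951 (20.4%) and a lowess trend 547 and 1898 (22.4%). A 2-fold threshold gave 139 and 787, and plain _at probe sets gave 318 and 507, with fewer genes tested. Over all settings list medians ran from -0.70 to 0.02 for the turnover and cofactor list, -0.32 to 0.05 for the MAP kinase list, -0.29 to 0.17 for the serum response list, 0.02 to 0.29 for the partner list, -0.17 to 0.16 for the immediate early list and -0.31 to -0.01 for the target list.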
